A study of Mus musculus with 13 samples.

Results

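The genes described here are 9 enzymes that turn squalene into cholesterol, Sqle, Lss, Cyp51, Tm7sf2, Nsdhl, Hsd17b7, Ebp, Sc5d and Dhcr7, followed in the livers of mice. They were chosen by name, as every probe whose gene name in the scanner files is one of the 9, which gave 13 of the 39429 probes on the array. The list was chosen with earlier results of these data known, so the shares of all genes given below are description, not a test. All 9 genes and all 13 probes passed the filter on dim probes, out of 19514 genes and unnamed transcripts tested. The 13 probes were well above background on all 13 arrays.

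Cholesterol is built from acetyl-CoA through mevalonate to squalene, and squalene is then oxidised, closed into the ring system of lanosterol and trimmed to cholesterol on the membrane of the endoplasmic reticulum. Sqle adds the oxygen and Lss closes the rings. Cyp51, Nsdhl and Hsd17b7 take part in removing the extra methyl groups of lanosterol. Tm7sf2, a sterol reductase, works on the product of Cyp51. Ebp, Sc5d and Dhcr7 then move, add and remove double bonds. The liver is a main site of this synthesis, and the genes are classic targets of SREBP2, a transcription factor that is released from its membrane when sterols are scarce and held back when they are plentiful.

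Liver RNA came from female C57BL6 mice that were 12 weeks old, labelled with 1 dye (Cy3) from 0.1 ug of RNA and hybridised to 13 arrays. The labels name 3 groups, HFHS diet with vehicle (HFHS, n = 5), ST diet with vehicle (ST vehicle, n = 3) and ST diet with pollutants (pollutants, n = 5), where ST is the standard diet and HFHS is called a high fat diet in the series text. That text gives 4 pollutants in the mixture, which the sources used here do not name, and it can be read as placing the mixture in the high fat diet, while each pollutant sample is labelled ST, and the sample labels were followed. All 3 groups share sex, strain and age, and no group combines the HFHS diet with pollutants. The samples are called biological replicates, without a statement of whether each is 1 animal. The series title gives the purpose, to set a low-dose mixture beside a high fat challenge. Both comparisons with the ST vehicle group use the same 3 arrays.

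There were 5 slides. An HFHS and a pollutant array lay on every one of them, and ST vehicle arrays on slides 1, 2 and 5. The arrays of slide 1 stood apart on the first principal component (22.8% of the variance), at -41.81 to -35.42 against -2.27 to 36.72 for the rest. Between 62.8% and 69.5% of probes were well above background on each array. HFHS replicates 3, 4 and 5 carried transcripts of pancreatic acinar cells. The mean of the 10 measured acinar markers out of 11 was 4.83, 3.53 and 6.93 on them, on the log2 scale used below, against -3.30 to -2.82 on HFHS replicates 1 and 2, -3.45 to -2.67 on the ST vehicle arrays and -3.64 to -2.05 on the pollutant arrays. Hepatocyte markers (7 of 8 measured) marked the tissue as liver, with means of 6.82 to 7.19 in HFHS, 7.21 to 7.34 in ST vehicle and 7.07 to 7.19 in pollutants. None of the markers of hepatocytes, acinar cells, adipocytes, Kupffer cells, endothelial cells or cholangiocytes passed the test in any comparison (0 of 36 measured in limma; 10, 1 and 14 had an unadjusted p under 0.05 in HFHS against ST vehicle, pollutants against ST vehicle and HFHS against pollutants). Of all 19514 genes, 2356, 2371 and 3569 had an unadjusted p under 0.05 in these comparisons. In whole liver, fewer cells of a type and less RNA per cell cannot be told apart.

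Start site sequences were available for 8 of the 9 genes in the RefSeq promoter table (GRCm38.p6), Sqle being the ninth. The 250 bases before the start are shown for 5 of them, because these genes span the pattern described below: Cyp51 and Nsdhl had the largest called differences between the diets, Hsd17b7 the smallest adjusted p among the 9 in that comparison, Tm7sf2 was the member called between HFHS and pollutants, and Ebp was called in no comparison. Each runs 5′ to 3′ towards the start of the gene, with capitals marking CCAAT (the NF-Y box), GGGCGG (the GC box) and CACGTG (an E-box), on either strand.
Cyp51, GRCm38.p6 chr5:4104698-4104947, minus strand: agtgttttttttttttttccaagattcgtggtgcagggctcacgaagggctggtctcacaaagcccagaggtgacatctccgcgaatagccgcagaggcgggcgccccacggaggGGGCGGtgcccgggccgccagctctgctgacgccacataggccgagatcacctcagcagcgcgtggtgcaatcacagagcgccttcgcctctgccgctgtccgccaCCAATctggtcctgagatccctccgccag
Nsdhl, GRCm38.p6 chrX:72918271-72918520, plus strand: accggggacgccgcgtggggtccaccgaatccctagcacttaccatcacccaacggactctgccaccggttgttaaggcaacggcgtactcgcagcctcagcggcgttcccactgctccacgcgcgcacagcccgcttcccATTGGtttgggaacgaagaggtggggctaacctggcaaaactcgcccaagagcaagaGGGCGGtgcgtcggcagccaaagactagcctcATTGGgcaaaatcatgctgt
Hsd17b7, GRCm38.p6 chr1:169969206-169969455, minus strand: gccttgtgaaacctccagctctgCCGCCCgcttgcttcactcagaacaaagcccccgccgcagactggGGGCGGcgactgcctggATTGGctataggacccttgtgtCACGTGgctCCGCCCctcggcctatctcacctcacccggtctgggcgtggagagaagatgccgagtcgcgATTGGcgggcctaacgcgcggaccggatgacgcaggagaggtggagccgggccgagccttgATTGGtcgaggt
Tm7sf2, GRCm38.p6 chr19:6067851-6068100, minus strand: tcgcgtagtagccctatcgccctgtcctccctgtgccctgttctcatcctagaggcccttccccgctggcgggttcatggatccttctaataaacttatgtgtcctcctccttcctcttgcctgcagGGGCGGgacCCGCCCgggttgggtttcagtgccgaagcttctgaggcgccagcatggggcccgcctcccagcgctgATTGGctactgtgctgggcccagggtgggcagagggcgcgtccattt
Ebp, GRCm38.p6 chrX:8193513-8193762, minus strand: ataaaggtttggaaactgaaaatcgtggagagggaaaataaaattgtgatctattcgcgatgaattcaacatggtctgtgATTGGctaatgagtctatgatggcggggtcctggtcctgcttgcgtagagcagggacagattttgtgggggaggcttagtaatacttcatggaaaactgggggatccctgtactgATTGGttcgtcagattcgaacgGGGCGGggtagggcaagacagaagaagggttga

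These 3 motifs and a form of the sterol regulatory element, TCACNCCAC, were searched on both strands of windows from 250 bases before to 50 after the start. CCAAT was found in all 8 genes and in 37.4% of the 32851 promoters of the table, and GGGCGG in all 8 and in 35.7%. CACGTG was found in 3 of the 8, Hsd17b7, Sc5d and Dhcr7, and in 7.15% of all promoters. TCACNCCAC was found in none of the 8 and in 1.24% of all. None of the 4 patterns contains another. Dhcr7 has 3 start sites in the table, and its CACGTG and its CCAAT lay before different ones. The members were counted as genes and the background as promoters, so the shares differ in unit. A gene with more start sites had more chances of a match. Ebp, whose levels differed least between the diets, and Cyp51 both held CCAAT and GGGCGG.

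Levels are given as log2 of the processed signal minus the 75th percentile of the array, so that 0 is the brightness at that percentile, and they are compared only within a gene, since a probe's brightness also depends on its sequence. Values are listed in the order of the replicate numbers. Differences come from limma, with standard errors and Benjamini-Hochberg adjusted p over the 19514 genes, and calls were made at an adjusted p under 0.05.

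The first comparison asked what the HFHS diet did to these enzymes. Nearly all fell together. Of the 9 genes, 7 fell and 0 rose, against 0.451% of all genes called lower and 0.236% called higher. On 8 of the 9, every HFHS array lay below every ST vehicle array, which was so for 5.33% of all genes. The median difference of the 9 was -1.59 on the log2 scale, and that of all genes -0.02. Ebp and Sqle were the members not called.

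**Figure D1:**
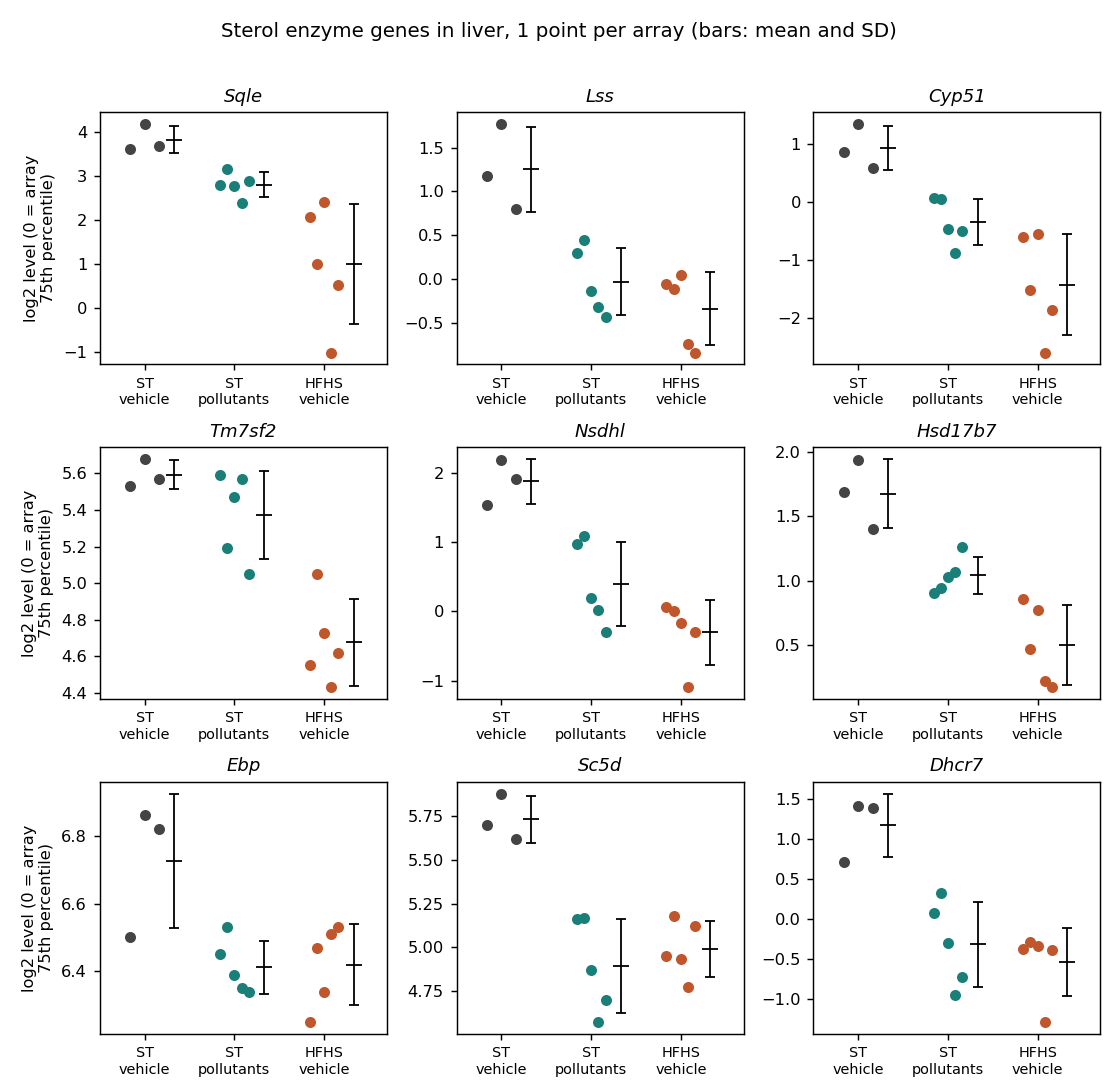
Log2 level of each of the 9 genes on every array (y axis, 0 is the array's 75th percentile; each panel has its own scale) in the 3 groups (x axis), with 1 point per array and the mean and SD as bars. The ST vehicle points lie above all HFHS points except for Ebp, and Sqle spreads most in HFHS, from -1.02 to 2.40.

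The pathway opens with Sqle, squalene epoxidase, a control point of the later pathway (probe at mm9 chr15:59162688-59162747). Its level was 3.62, 4.19 and 3.69 on the ST vehicle arrays, and 2.07, 1.00, 2.40, -1.02 and 0.53 in HFHS. The groups did not overlap, but the HFHS arrays spread over 3.43 log2 units, against 0.57 in ST vehicle and 0.80 in pollutants, with replicate 4 lowest. The difference was -2.83 ± 0.59 (95% interval -4.13 to -1.54, 7.13-fold lower), the largest of the 9, and it missed the threshold (adjusted p = 0.0559). Sqle was called in 6 of 25 alternative settings, with an adjusted p of 0.0275 to 0.191 over the 25: without HFHS replicate 4 (0.0275), replicate 3 (0.0313) or replicate 1 (0.0486), in the authors' table (0.0320), with only probes well above background on all 13 arrays (0.0462) and with normexp background correction (0.0484).

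Lss, lanosterol synthase, closes the rings (mm9 chr10:76015992-76016051). It lay at 1.18, 1.77 and 0.80 in ST vehicle and at -0.06, -0.11, 0.05, -0.74 and -0.84 in HFHS. No HFHS array reached the lowest ST vehicle array, and replicates 4 and 5 were the lowest. Lss differed by -1.59 ± 0.28 (3.02-fold lower, adjusted p = 0.0259 in limma).

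Cyp51, the lanosterol demethylase, is the first of the genes that trim lanosterol (mm9 chr5:4081471-4081530). Its levels were 0.86, 1.35 and 0.59 in ST vehicle. In HFHS they were -0.60, -1.52, -0.54, -2.59 and -1.86, so that replicates 1 and 3 were nearest to the ST vehicle arrays and replicate 4 farthest, with no overlap. The difference of -2.36 ± 0.42 (5.13-fold lower, adjusted p = 0.0265) was the largest among the called members.

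Tm7sf2, a sterol reductase that works on the product of Cyp51, was steady within groups (mm9 chr19:6062882-6062941). It read 5.53, 5.68 and 5.57 in ST vehicle and 4.55, 5.05, 4.73, 4.43 and 4.62 in HFHS. The groups were apart, with HFHS replicate 2 highest of its group. Tm7sf2 fell by 0.92 ± 0.15 (1.89-fold, adjusted p = 0.0217), and its second probe by more (-1.1 ± 0.17, adjusted p = 0.0145 over all probes).

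Nsdhl is a dehydrogenase that takes part in removing the paired methyl groups of the sterol ring (mm9 chrX:70202803-70202862). It stood at 1.54, 2.19 and 1.92 in ST vehicle, and at 0.06, 0.00, -0.17, -1.10 and -0.30 in HFHS. All HFHS arrays lay over 1 log2 unit below the ST vehicle arrays, and replicate 4 was again lowest. Nsdhl fell by 2.19 ± 0.34 (4.55-fold, adjusted p = 0.0148), and its other probe differed by -2.15 ± 0.31 (adjusted p = 0.0108).

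Hsd17b7, the ketosteroid reductase of the same demethylation, had the smallest adjusted p of the 9 (mm9 chr1:171883182-171883241). ST vehicle arrays gave 1.69, 1.94 and 1.40, and HFHS arrays 0.86, 0.47, 0.77, 0.22 and 0.17. The groups did not overlap, and HFHS replicates 4 and 5 were lowest. The gene fell by 1.18 ± 0.17 (2.26-fold, adjusted p = 0.0125). Of its 2 other probes, the one on the same RefSeq transcript differed by -1.14 (adjusted p = 0.0108), and the one on a separate Ensembl transcript, which was dim (-3.89 to -2.50 over these groups), by -0.92 (adjusted p = 0.0734).

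Ebp, the sterol isomerase, had the smallest difference (mm9 chrX:7762463-7762522). Its levels were 6.50, 6.86 and 6.82 in ST vehicle and 6.25, 6.47, 6.34, 6.51 and 6.53 in HFHS. The groups overlapped, since ST vehicle replicate 1 lay below HFHS replicates 4 and 5. The difference of -0.31 ± 0.10 (95% interval -0.52 to -0.09) was not called (adjusted p = 0.227).

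Sc5d, the desaturase that makes the substrate of Dhcr7, had a small and even difference (mm9 chr9:42062857-42062916). It was 5.70, 5.88 and 5.62 in ST vehicle and 4.95, 5.18, 4.93, 4.77 and 5.12 in HFHS. The groups were apart, and Sc5d fell by 0.75 ± 0.15 (1.68-fold, adjusted p = 0.0455). The call held in 7 of 25 alternative settings, with an adjusted p of 0.032 to 0.284 over the 25 in limma. It was lost with quantile normalization (0.0629) and with normexp background correction (0.12).

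Dhcr7, which reduces the last double bond on the way to cholesterol, gave 0.72, 1.42 and 1.39 in ST vehicle (mm9 chr7:151033874-151033933). In HFHS it gave -0.37, -0.29, -0.33, -1.29 and -0.38, so that 4 arrays lay between -0.38 and -0.29 and replicate 4 far below, all under the ST vehicle arrays. Dhcr7 fell by 1.71 ± 0.31 (3.27-fold, adjusted p = 0.0305).

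Fewer members were called when some arrays were left out. No direction turned, and for the 8 members without overlap it could not, since every HFHS array lay below every ST vehicle array. In limma, 0 of the 9 were called without ST vehicle replicate 1 or without replicate 2 (9 and 8 at an unadjusted p under 0.05), 2 without ST vehicle replicate 3 or without HFHS replicate 5, and 4 without HFHS replicate 2. Of the 19514 genes, 2042 and 1959 had an unadjusted p under 0.05 without ST vehicle replicates 1 and 2. All genes called went from 134 to 23, 56 and 42 without ST vehicle replicates 1, 2 and 3. They went to 68 and 80 without HFHS replicates 5 and 2. With no filter on dim probes 3 of the 9 were called, and with only these groups in the fit 1, Nsdhl (55 and 25 of all genes). When the 3 acinar-high HFHS arrays were left out the count was 0, with 9 of 9 at an unadjusted p under 0.05, and 4 genes were called of all genes. That fit had 1900 of the 19514 genes at an unadjusted p under 0.05. On those remaining HFHS arrays, replicates 1 and 2, each of the 9 members lay below the lowest ST vehicle array, with mean differences from -2.30 for Sqle and -2.0 for Cyp51 to -0.67 for Sc5d and -0.36 for Ebp.

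**Figure D2:**
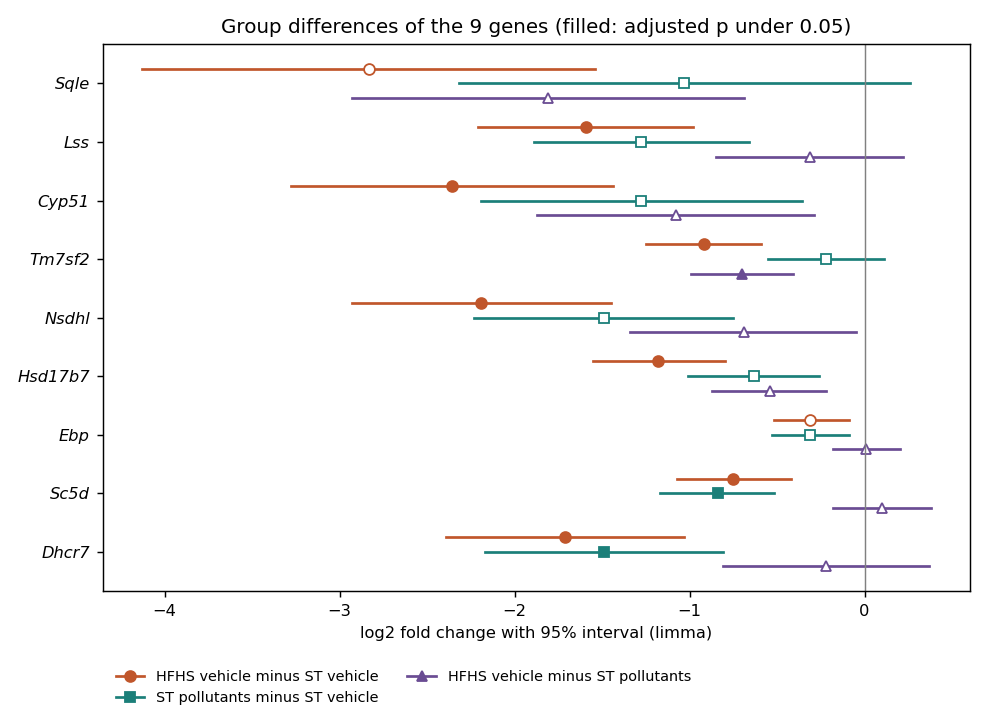
Log2 fold change (x axis) of the 9 genes (y axis) in the 3 comparisons, with 95% intervals from limma; filled symbols have an adjusted p under 0.05. The HFHS against ST vehicle differences run from -2.83 for Sqle to -0.31 for Ebp, and the pollutant differences from -1.49 for Nsdhl and Dhcr7 to -0.22 for Tm7sf2.

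The second comparison asked what the pollutants did on the standard diet. The means of all 9 genes were again lower than in ST vehicle. Of the 9, Sc5d and Dhcr7 fell (2 of 9) and 0 rose, against 0.441% of all genes called lower and 0.543% called higher. Every pollutant array lay below every ST vehicle array for 7 of the 9, which was so for 4.40% of all genes. The median difference of the 9 was -1.03, and that of all genes -0.01.

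Sc5d was 5.16, 5.17, 4.87, 4.57 and 4.70 on the pollutant arrays. All lay below the ST vehicle arrays (5.62 at the lowest), with replicate 4 the lowest of all 13 arrays for this gene. It fell by 0.84 ± 0.15 (1.79-fold, adjusted p = 0.0245). Dhcr7 was 0.08, 0.33, -0.30, -0.95 and -0.72 on the same arrays, again without overlap and with replicates 4 and 5 lowest. Its difference of -1.49 ± 0.31 (2.81-fold lower) was called by a narrow margin (adjusted p = 0.0483).

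Sqle and Lss, the entry steps, both lay below ST vehicle without a call. Sqle read 2.80, 3.17, 2.78, 2.38 and 2.89 with pollutants, a tight group below the lowest ST vehicle array. Its difference was -1.03 ± 0.59 (95% interval -2.32 to 0.26, adjusted p = 0.573). The model shares 1 variance per gene between groups, and the SD of Sqle was 0.29 with pollutants and 1.36 in HFHS. With only the pollutant and ST vehicle arrays fitted, the difference was -1.03 ± 0.20 and was still not called (adjusted p = 0.104 in limma). Lss read 0.30, 0.44, -0.14, -0.32 and -0.43, and differed by -1.28 ± 0.28 (adjusted p = 0.0580).

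Among the demethylation genes, Nsdhl gave 0.97, 1.09, 0.19, 0.02 and -0.30 with pollutants. Replicates 1 and 2 were high and replicate 5 low, all below ST vehicle, and the difference of -1.49 ± 0.34 missed the threshold (adjusted p = 0.0650). Cyp51 gave 0.07, 0.06, -0.46, -0.87 and -0.50, a difference of -1.28 ± 0.42 (adjusted p = 0.209). Hsd17b7 gave 0.90, 0.94, 1.03, 1.07 and 1.26, a difference of -0.63 ± 0.17 (adjusted p = 0.123). Both were free of overlap with ST vehicle.

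Tm7sf2 and Ebp were the members whose pollutant and ST vehicle arrays overlapped. Tm7sf2 lay at 5.59, 5.19, 5.47, 5.57 and 5.05, with replicates 1 and 4 inside the ST vehicle range. Its difference was -0.22 ± 0.15 (95% interval -0.55 to 0.11, adjusted p = 0.676), and that of its second probe -0.23. Ebp lay at 6.45, 6.53, 6.39, 6.35 and 6.34, and replicate 2 overlapped ST vehicle replicate 1. The difference was -0.31 ± 0.10 (adjusted p = 0.195).

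Without any 1 of the ST vehicle arrays, or without pollutant replicate 3 or 5, 0 of the 9 were called in limma, with 5 to 7 of the 9 at an unadjusted p under 0.05. In those fits 1883 to 2126 of the 19514 genes had an unadjusted p under 0.05. The count of members called was 1 without HFHS replicate 1, 2, 3 or 5 or without pollutant replicate 1 or 4. All genes called went from 192 to 39, 76 and 46 without ST vehicle replicates 1, 2 and 3. They were 98 and 91 without pollutant replicates 3 and 5, and 122 and 89 without pollutant replicates 1 and 4. Without HFHS replicates 1, 2, 3 and 5 they were 150, 117, 156 and 167. With normexp background correction 22 of all genes were called, and 1119 had an unadjusted p under 0.05. The count of members was also 0 there, with 6 of 9 at an unadjusted p under 0.05. In the authors' table it was 4, with Lss (adjusted p = 0.0341) and Nsdhl (adjusted p = 0.0490) beside Sc5d and Dhcr7, and 193 of all genes were called there.

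The third comparison set HFHS against pollutants, groups that share no array. Tm7sf2 was the member called: every HFHS array lay below every pollutant array, from 4.43 to 5.05 against 5.05 to 5.59 (the arrays nearest to each other, HFHS replicate 2 and pollutant replicate 5, both round to 5.05). The difference was -0.70 ± 0.13 (1.62-fold lower in HFHS, adjusted p = 0.0131), and the second probe gave -0.87 (adjusted p = 0.00921). In all, 1 of the 9 was called lower and 0 higher, against 2.30% and 1.57% of all genes, and 2 of the 9, Tm7sf2 and Hsd17b7, were lower on every HFHS array, against 4.19% of all genes. The median difference of the 9 was -0.54, and that of all genes 0.00.

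Sqle, Cyp51, Nsdhl and Hsd17b7 had lower means in HFHS, without calls on their main probes. Hsd17b7 differed by -0.54 ± 0.15 (adjusted p = 0.0707), and its probe on the same transcript was called (-0.67, adjusted p = 0.0260). Sqle differed by -1.81 ± 0.51 (adjusted p = 0.0772), Cyp51 by -1.08 ± 0.36 (adjusted p = 0.129) and Nsdhl by -0.69 ± 0.29 (adjusted p = 0.229). These 3 overlapped between the groups and were not called.

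The remaining members had intervals that included 0. Lss differed by -0.31 (95% interval -0.85 to 0.22), Dhcr7 by -0.22 (-0.81 to 0.37), Ebp by 0.01 (-0.18 to 0.20) and Sc5d by 0.10 (-0.18 to 0.38). The intervals of Ebp and Sc5d were the narrowest of these and leave out any larger difference. Tm7sf2 was not called when the 3 acinar-high HFHS arrays were left out, nor with normexp background correction, where 2 and 5 of the 9 had an unadjusted p under 0.05. Of all genes, 3061 and 3053 had such a p in those fits. Without HFHS replicate 3, Sqle was called beside Tm7sf2, with 325 of all genes called lower and 175 higher.

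Set in order of group means, 7 of the 9 ran from ST vehicle at the top through pollutants to HFHS at the bottom, an order held by 16.8% of all genes. Ebp and Sc5d were the exceptions, with pollutants at or below HFHS. Neighbours in that order were called different for few genes: ST vehicle and pollutants for Dhcr7, and pollutants and HFHS for Tm7sf2. For Sc5d the order from the top was ST vehicle, HFHS, pollutants. The upper neighbours were called different (adjusted p = 0.0455 in limma), a call held in 7 of 25 alternative settings.

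**Figure D3:**
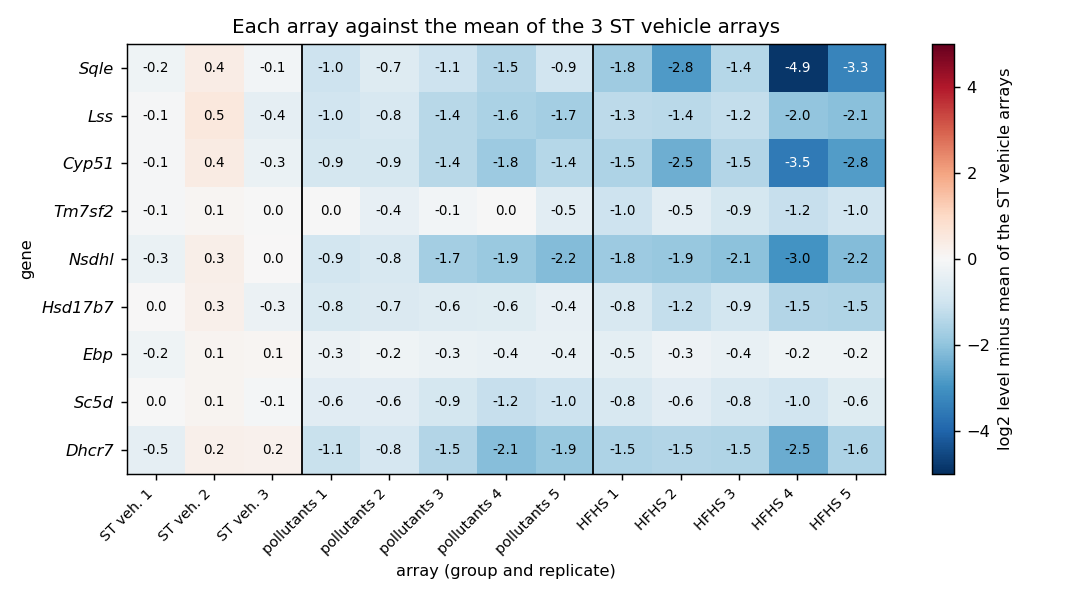
Log2 level of each gene (y axis) on each array (x axis, by group and replicate) minus the mean of the 3 ST vehicle arrays, in colour and as printed values. ST vehicle replicate 2 is the highest array in every row, and HFHS replicate 4 holds the lowest values of Sqle and Cyp51, -4.9 and -3.5.

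Arrays of a group also differed from each other in a way many of the 9 genes shared. ST vehicle replicate 2 was the highest of the 13 arrays for all 9 genes, against 8.39% of all genes, and HFHS replicate 4 was the lowest of the 13 for 5 of the 9, against 6.99%. The median SD of the 9 genes within a group was 0.41 in HFHS, 0.31 in ST vehicle and 0.29 in pollutants, while that of all genes was 0.18 to 0.20. With the group means taken out, Cyp51 tracked the mean of the other members over the 13 arrays (r = 0.911), as did Nsdhl (0.830) and Lss (0.825). Dhcr7 (0.785), Sqle (0.775) and Sc5d (0.620) followed. Hsd17b7 (0.453), Tm7sf2 (0.286) and Ebp (-0.0687) tracked it less or not at all. These are descriptions over 13 arrays that share slides, and Tm7sf2 and Ebp had SDs within groups of 0.24 at most.

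**Figure D4:**
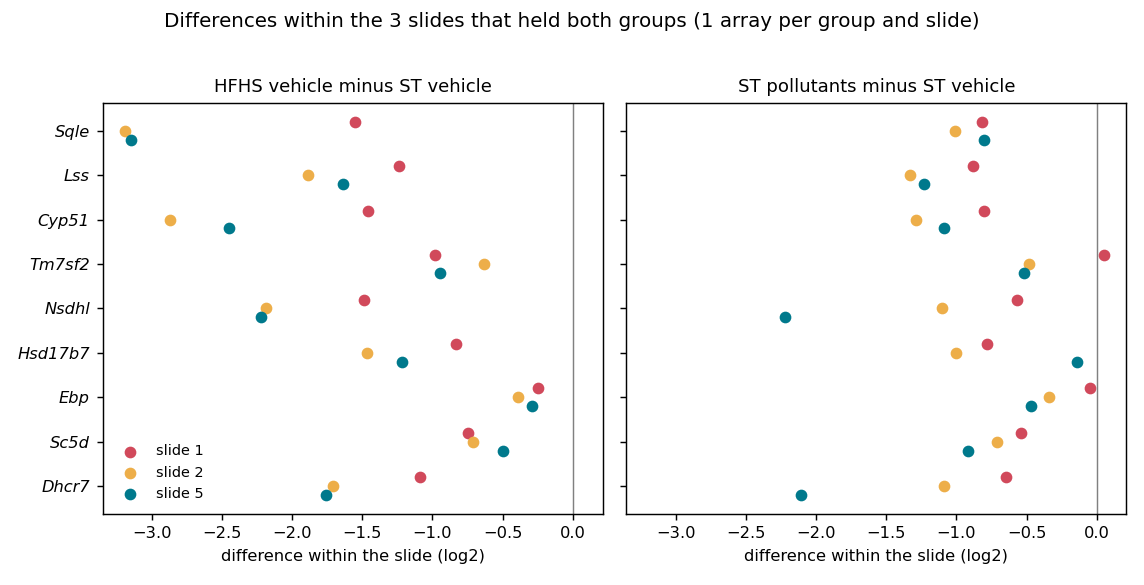
Differences within the slides that held an ST vehicle array (x axis, log2; 1 array per group and slide, so no error) for the 9 genes (y axis), HFHS on the left and pollutants on the right. All 27 HFHS points and 26 of the 27 pollutant points lie below 0, the exception being Tm7sf2 on slide 1 at 0.05. Points of a slide share its arrays and are not independent.

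Slides could be compared directly, because 3 of them held all 3 groups. Within slides, HFHS minus ST vehicle was negative in 27 of 27 gene and slide pairs. For Sqle it was -1.55 on slide 1 and -3.19 at the largest, and for Cyp51 -1.46 to -2.87. Pollutants minus ST vehicle was negative in 26 of 27, from -2.22 for Nsdhl on slide 5 to 0.05 for Tm7sf2 on slide 1. HFHS minus pollutants, on 5 slides, was negative in 36 of 45, and in all 5 for Sqle, Cyp51, Hsd17b7 and Tm7sf2. The genes of a slide were read on the same arrays, so these pairs are not independent, and the share among all genes was not counted. Where the arrays of the groups compared did not overlap, the sign within a slide follows from that.

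With the slide as a block in limma, 4 of the 9 were called lower in HFHS than in ST vehicle: Lss (adjusted p = 0.0153), Nsdhl (0.0254), Cyp51 (0.0286) and Dhcr7 (0.0379). Hsd17b7 (0.0519), Sc5d (0.0575) and Tm7sf2 (0.0820) then missed the threshold. For pollutants against ST vehicle, Sc5d (adjusted p = 0.0379) and Lss (0.0267) were called and Dhcr7 was not (0.0678). For HFHS against pollutants, Sqle (adjusted p = 0.0481) joined Tm7sf2 (0.0366). All genes called with this block were 84 for HFHS and 67 for pollutants, both against ST vehicle. Between HFHS and pollutants, 494 of all genes were called lower in HFHS and 295 higher. Without the 3 arrays of slide 1, 0 of the 9 were called in any comparison, with 9, 7 and 4 of the 9 at an unadjusted p under 0.05 in the order above. That fit left 2 ST vehicle arrays and called 1, 3 and 1 of all genes. Of all genes, 1865, 2079 and 2834 had an unadjusted p under 0.05 in it.

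**Figure D5:**
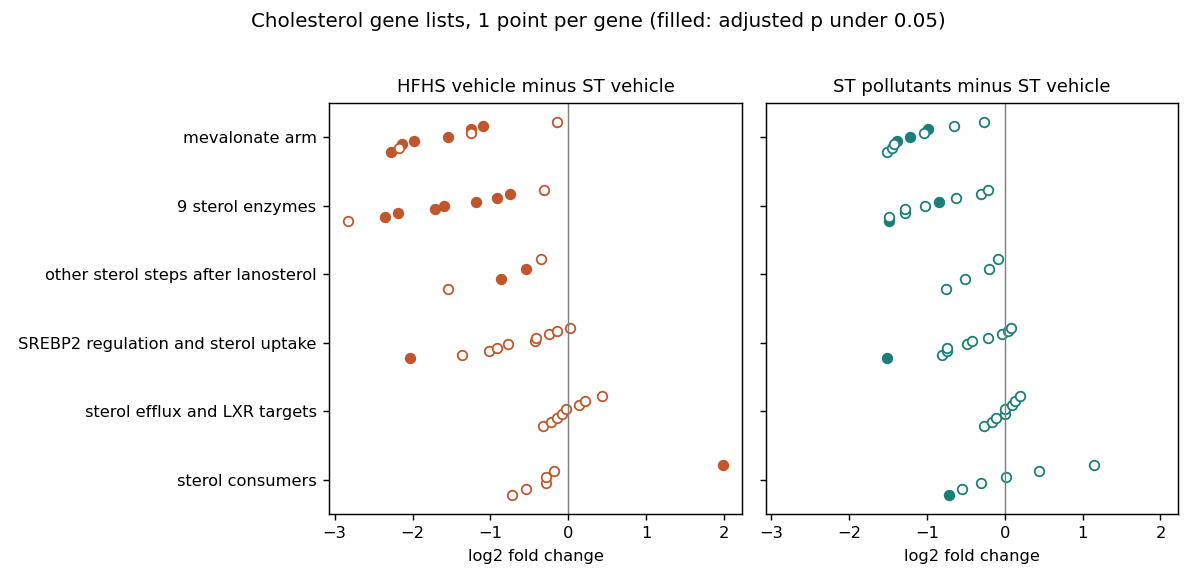
Log2 fold change (x axis) of the genes of 6 lists around cholesterol (y axis), with 1 point per gene; the left panel shows HFHS and the right panel pollutants, both against ST vehicle. The mevalonate arm and the 9 sterol enzymes lie below 0 throughout, and the sterol efflux genes lie around 0.

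The 9 enzymes continue the mevalonate arm, the steps that lead to squalene. In HFHS against ST vehicle, 6 of 9 of those genes fell and 0 rose, with a median difference of -1.55. Hmgcs1, HMG-CoA synthase, fell by 1.98 ± 0.27, Idi1, an isomerase of isoprenoid units, by 2.28 ± 0.36, Pmvk, phosphomevalonate kinase, by 1.55 ± 0.25, and Fdft1, squalene synthase and so the enzyme just before Sqle, by 1.1 ± 0.17 (adjusted p = 0.0115, 0.0149, 0.0185 and 0.0149).

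With pollutants, 3 of the 9 mevalonate genes fell and 0 rose. These were Acat2, the cytosolic thiolase that opens the pathway (-0.99 ± 0.14, adjusted p = 0.0113), Hmgcs1 (-1.39 ± 0.27, adjusted p = 0.0342) and Mvk, mevalonate kinase (-1.22 ± 0.25, adjusted p = 0.0456). Acat2 differed by -0.14 ± 0.14 between HFHS and ST vehicle and was higher in HFHS than in pollutants by 0.85 ± 0.12 (adjusted p = 0.00586), the 1 call of that list between them.

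Other enzymes act beside the 9 after lanosterol. Lbr, the lamin B receptor, carries the same sterol reductase activity as Tm7sf2, and Erg28 is a scaffold of the demethylation complex that holds Nsdhl. Of the 4 genes of that list, 2 fell in HFHS, Lbr by 0.54 ± 0.10 (adjusted p = 0.0284) and Erg28 by 0.86 ± 0.17 (adjusted p = 0.0428). Msmo1, the methylsterol oxidase, differed by -1.54 ± 0.40 (adjusted p = 0.125). With pollutants 0 of the 4 were called by limma, with 1, Erg28, at an unadjusted p under 0.05 (-0.51 ± 0.17, adjusted p = 0.203). Of all genes, 2371 had an unadjusted p under 0.05 in that comparison. Between HFHS and pollutants Lbr was lower in HFHS (-0.34 ± 0.08, adjusted p = 0.0473), as was Tm7sf2, which shares its activity.

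Few genes that regulate the pathway or take up sterol were called. Of 10 measured out of 11, 1 fell in each comparison with ST vehicle, Rdh11, a retinol dehydrogenase that is also an SREBP target, by 2.03 ± 0.24 in HFHS (adjusted p = 0.00705) and 1.51 ± 0.24 with pollutants (adjusted p = 0.0183). Srebf2, which encodes SREBP2, differed by -0.92 ± 0.26 in HFHS (adjusted p = 0.162). Of 8 genes of sterol efflux and LXR targets, limma called 0 in any comparison (1, 1 and 4 at an unadjusted p under 0.05), and their median difference was -0.06 in HFHS and 0.00 with pollutants. Of the 19514 genes, 2356, 2371 and 3569 had such an unadjusted p. Nr1h3, which encodes LXRalpha, came nearest in HFHS (0.22 ± 0.09, adjusted p = 0.354).

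Clock genes differed between the same groups, and sterol synthesis is known to follow the time of day and of feeding. In HFHS against ST vehicle Arntl, the activator of the clock, was lower (-1.60 ± 0.28, adjusted p = 0.0242) and Per2, a repressor, higher (1.63 ± 0.29, adjusted p = 0.0258), 2 of 12 measured clock genes out of 14. With pollutants 5 were higher, among them Ciart (2.88 ± 0.49, adjusted p = 0.0220), Per2 (1.85 ± 0.29, adjusted p = 0.0157) and Per1 (1.47 ± 0.27, adjusted p = 0.0302), and 2 were lower, Arntl (-2.13 ± 0.28, adjusted p = 0.00636) and Clock (-0.64 ± 0.13, adjusted p = 0.0483). The time of tissue collection and of feeding is not given in the sources used here, and the part of the clock genes in the levels of the 9 enzymes was not tested. The part of the hepatocyte marker means, which lay below the ST vehicle range in both other groups as given above, was not tested either. Cholangiocyte markers (4 of 5 measured) were also lower on every HFHS array, with means of -2.78 to -2.43 against -2.22 to -1.89 in ST vehicle and -2.63 to -1.64 in pollutants, and their part in the result was not tested.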

How the data were processed

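Liver RNA of 13 samples in 3 groups was measured on one-colour Agilent arrays. The authors deposited scanner files that hold the intensity of each spot on a linear scale, extracted with Agilent Feature Extraction 11.5.1.1 per the file headers. Normalized log2 values of 26082 probes, which the authors deposited as a table, involved limma according to the submitters' processing notes; the log2 scale was read from the values, each column matched its own array best (13 of 13), and it served as an alternative. Signal processing was the scanner program's, and cross-hybridisation to close copies cannot be undone.

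From the processed signal, control spots were left out, outlier spots removed (128 missing values in the genes tested), spots of a probe averaged on the log2 scale and each array's 75th percentile subtracted. A probe stayed in if all arrays of some group had it well above background (25030 probes), and the probe of highest mean stood for its gene; other probes of the 9 genes were fitted in a model of all probes. limma 3.58.1 (R 4.3.3) fitted all 13 arrays with 3 groups, two-sided, with Benjamini-Hochberg adjustment over 19514 genes. The number of arrays limits the precision, and p-values measure the spread between these samples. The fit was tested on simulated data.

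The members and the gene lists were chosen with earlier results of these data known. Named genes were the 9 members, up to 4 called genes of smallest p per list and comparison (the gene of smallest p where none was called) and the 5 genes most like the members' mean; Msmo1 and Srebf2 were added for their roles, and Clock to complete a count. Values of some other genes of the lists are not reported here. Alternatives were quantile normalization, normexp background correction (offset 50), the authors' table, other filters, other ways of combining probes, 2 groups only, slide or replicate number as a block, and leaving out arrays; leaving out the acinar-high arrays or slide 1 was chosen after seeing the data. Probe positions are mm9 as in the files and promoter positions GRCm38.p6.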

Additional observations from a re-analysis of the deposited data

Results flagged for a closer look

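Of 18 gene and group sets of 4 to 10 arrays tested for a single array far from the rest (Dixon's test at the 95% level, which chance meets in about 1 in 20 sets), 1 stood out. Dhcr7 was -1.29 on HFHS replicate 4 on the log2 scale, and the nearest other HFHS array was at -0.38, a gap of 0.918 of the range of the group. That array was also the lowest of the HFHS group for 6 of the 9 genes and carried acinar transcripts, whose part was not tested. Without it, Dhcr7 differed from ST vehicle by -1.52.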

How the results depend on the processing

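Against ST vehicle the 9 enzymes were negative in all 225 combinations of gene and alternative, for HFHS and likewise for pollutants, while the number that passed limma's threshold moved. The alternatives reuse the same 13 arrays, so the combinations are not independent checks. Some could not change a difference, such as leaving out an array of the group not compared. The 7 members called in HFHS against ST vehicle became 8 in the authors' table and with only probes well above background on all 13 arrays, 3 without a filter on dim probes, 1 with only the 2 groups fitted, 4 with the slide as a block and 3 with the replicate block, and 0 without the 3 acinar-high arrays or without slide 1 (9 of 9 at an unadjusted p under 0.05 in both). All genes called (134) became 45 with normexp, 55 without the filter, 25 with 2 groups, 84 with the slide, 53 with the replicate block, 4 without the acinar-high arrays and 1 without slide 1. Without the acinar-high arrays 1900 of all genes had an unadjusted p under 0.05, and without slide 1 this held for 1865. The 2 members called with pollutants became 4 in the authors' table and 0 with normexp, without the filter, with 2 groups only, with the replicate block, and without the acinar-high or the slide 1 arrays (6 to 8 of 9 at an unadjusted p under 0.05). All genes called there (192) became 22, 70, 40, 67, 44, 92 and 3 with normexp, without the filter, with 2 groups, the slide, the replicate block, and without the acinar-high and the slide 1 arrays. In those of these fits that called 0 members, 1119 to 2377 of the genes tested had an unadjusted p under 0.05. For HFHS against pollutants the 1 member became 2 with the slide and 0 with normexp or without the acinar-high or slide 1 arrays, and all genes called (756) became 284 with normexp, 361 without the filter, 289 without the acinar-high arrays and 1 without slide 1. Leaving out 1 array at a time gave 0 to 7, 0 to 3 and 1 to 2 members, and 23 to 140, 39 to 175 and 349 to 712 of all genes, in the 3 comparisons. Ebp and Sc5d, which hardly differed between HFHS and pollutants, changed sign: Ebp was -0.12 with normexp, -0.05 without the acinar-high arrays and -0.02 to 0.05 with 1 array left out, and Sc5d -0.05 with normexp. Some of these alternatives fitted fewer arrays or tested more genes, and the cause of the lost calls was not tested. Replicate number and slide coincide except for ST vehicle replicate 3, which lay on slide 5, so that the replicate block and the slide block are nearly the same. The labels do not say that a number marks a pair, so the samples were not treated as paired. The deviations of same-numbered arrays correlated at -0.168 to 0.563, and at -0.021 to 0.563 where they also shared a slide. ST vehicle replicate 3 correlated at 0.256 with HFHS replicate 5 and at 0.276 with pollutant replicate 5, its neighbours on slide 5. Arrays of different groups on different slides correlated at -0.408 to 0.268. Arrays of a slide thus tended to deviate together, and the fit with the slide as a block is given above.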

Other observations

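Among 19384 other genes or transcripts with complete values, the one whose level was most like the mean of the 9 enzymes over the 13 arrays was measured by a probe without a gene name (A_55_P2046408, Pearson r = 0.992). The named gene most like it, in the second place, was Fdps, farnesyl diphosphate synthase of the mevalonate arm (Pearson r = 0.984, Spearman rho = 0.918). These were chosen for their likeness, so no p is given, and the arrays share slides. Without ST vehicle replicates 2 and 3, the arrays farthest from the median, r was 0.969 for Fdps, and with the group means taken out it was also 0.969. The next 3 places also went to probes without a gene name (r = 0.982 to 0.983). These share runs of 27 to 31 of their 60 bases with the Fdps probe, so that their signals may not be separable from that of Fdps. The probe in the first place shares a run of 6. Only the 60 bases of that Fdps probe were compared, so whether the first probe matches another stretch of Fdps was not tested. Fdps fell by 2.13 ± 0.38 on the log2 scale in HFHS against ST vehicle (adjusted p = 0.0261 in limma) and differed by -1.51 ± 0.38 with pollutants (adjusted p = 0.0869).

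Genes that use cholesterol went their own ways, with 6 of 8 measured. In HFHS against ST vehicle 1 rose and 0 fell: Cyp7a1, which sets the rate of bile acid synthesis from cholesterol, was higher by 1.99 ± 0.29 (log2, 3.96-fold, adjusted p = 0.0125 in limma). With pollutants 1 fell, Hsd3b7, another bile acid enzyme (-0.72 ± 0.13, adjusted p = 0.0246), while Cyp7a1 differed by 1.14 ± 0.29 (adjusted p = 0.0979). Between HFHS and pollutants, Cyp39a1, an oxysterol hydroxylase, was lower in HFHS (-1.16 ± 0.18, adjusted p = 0.00591) and Hsd3b7 higher (0.44 ± 0.11, adjusted p = 0.0463).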
